A study of Homo sapiens with 2 samples.

Results

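Genes that restrain or drive the start of the cell cycle, together with targets of the tumour suppressor p53, were compared between vehicle-treated and ebastine-treated prostate cancer cells. The group held 9 genes: the cyclin-dependent kinase (CDK) inhibitors CDKN1A and CDKN1C, the transcription factors E2F1 and E2F2, and the p53 targets TP53INP1, SESN1, KIAA0247, DDB2 and GDF15. CDKN1A is itself a p53 target. All 9 were found among the 1947 genes of the deposited table. They were selected by name from that table, whose own genes were selected on the measured difference between the libraries, at a p-value under 0.05. The values below therefore describe these genes and no test was made on them. The highest p-value among the 9 in the authors' deposited table was 0.0182, for CDKN1C, and the highest in the whole table was 0.0499.

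The cells were C4-2, an established human prostate cancer line with androgen receptor, descended from LNCaP. Both cultures were replated and left to attach, after which the medium was replaced, for 1 culture with vehicle and for 1 with ebastine, an antihistamine that blocks the H1 receptor. Its dose and duration are not stated in the sources used here. Polyadenylated RNA was sequenced in 1 library per group, so there is no spread between replicates and no difference below has an error. Levels are in FPKM, fragment counts scaled to transcript length and library size, so that levels of different genes can be compared. The depth is unknown because the file gives no counts.

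Progress from G1 into S phase depends on CDKs, which phosphorylate the retinoblastoma protein and so free E2F factors to switch on the genes of DNA replication. CDK inhibitors hold this step back, and p53 blocks it mainly by inducing CDKN1A. Other p53 targets serve DNA repair, cell death, metabolism or the regulation of p53 itself.

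The p53 targets of the group went in both directions, and both E2F genes were lower with ebastine on the authors' scale, although E2F2 was not after the centring described next. Of the 9 genes, 4 were higher in the ebastine library (TP53INP1, CDKN1A, SESN1 and KIAA0247) and 5 were lower (DDB2, GDF15, CDKN1C, E2F1 and E2F2). Of the 1768 listed genes averaging 1 FPKM or more, 43.0% were higher and 57.0% lower. The ratio used was log2((ebastine + 1)/(vehicle + 1)), which understates the change of low genes, and fold values are on the same scale. TP53INP1 and CDKN1A were at least 1.5-fold higher and DDB2 was at least 1.5-fold lower, beside 9.67% and 18.6% of the listed genes. DDB2 stayed under 1.5-fold with a pseudocount of 5 FPKM (-0.45), after centring and after upper quartile rescaling (-0.41). Those shares also depend on how the libraries are scaled. The q-value was under 0.05 for CDKN1A, TP53INP1, DDB2 and GDF15, 4 of the 9, per the authors' deposited table, beside 41.0% of all listed genes. These q-values compare 2 libraries and not the treatments.

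**Figure D1:**
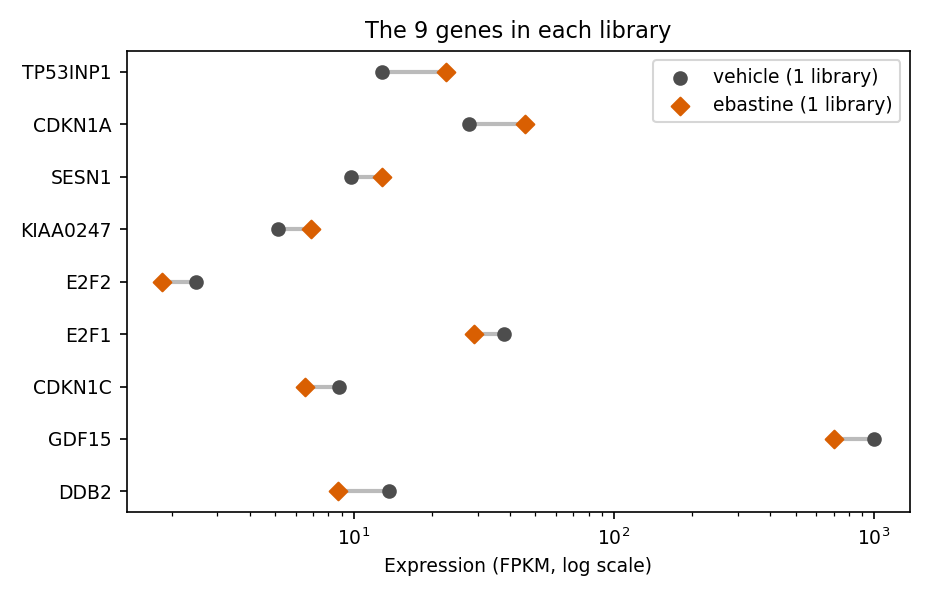
Expression of each of the 9 genes in FPKM on a logarithmic axis, with a circle for the vehicle library and a diamond for the ebastine library, ordered by ratio. TP53INP1, CDKN1A, SESN1 and KIAA0247 have the diamond to the right of the circle and the other 5 genes have it to the left; GDF15 stands far above the rest at 1002 and 703 FPKM.

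The scaling between libraries shifts every ratio, and E2F2 changed direction under the centring but not under upper quartile rescaling (-0.16). The median log2 ratio of the listed genes was -0.32, and subtracting the median of those averaging 10 FPKM or more added 0.34 to every ratio. After this centring 52.1% of the 1768 genes were higher and 47.8% lower, with a median of 0.01. CDKN1A then lay at 1.02, TP53INP1 at 1.11, SESN1 and KIAA0247 at 0.70 and 0.69, DDB2 at -0.26 and GDF15 at -0.18. E2F1 and CDKN1C came to lie near 0, at -0.04 and -0.05, and E2F2 turned to 0.04. The shift was added to ratios holding the pseudocount, which understates the change of low genes. The authors' log2 fold change of E2F2, without a pseudocount, was -0.43, further from 0 than the shift of 0.34. The turn of E2F2 therefore depends on the pseudocount. The centring uses only genes past the authors' p-value limit, so neither scaling is known to be the right one. Ratios of 1 gene to another inside a library are free of this choice and are given beside the results.

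CDKN1A, which encodes the CDK inhibitor p21, was the only one of the listed CDK inhibitors that was higher with ebastine, also after centring. CDKN1A (hg19 chromosome 6, 36644237 to 36655116) measured 27.8 FPKM in the vehicle library and 45.5 FPKM in the ebastine library. The log2 ratio was 0.69, a 1.61-fold difference, and ranked 117th from the top of the 1768 genes. Of the 8 CDK inhibitor genes on the list, 6 were in the table, 1 higher and 5 lower, with a median log2 ratio of -0.41. Over all listed genes 43.0% were higher and 57.0% lower. CDKN1B, the p27 gene of the same Cip/Kip family, measured 51.3 FPKM in the vehicle library and 37.4 FPKM in the ebastine library. CDKN1C, the p57 gene, which is imprinted and expressed from the maternal copy in most tissues, was at 8.79 and 6.52 FPKM (hg19 chromosome 11, 2904448 to 2906995), a 1.30-fold difference. With vehicle, the CDKN1A level was 0.543 of that of CDKN1B, and with ebastine it was 1.21 times that level. Its excess over CDKN1C went from 3.17 to 6.98 times. The Cip/Kip genes thus changed order between the libraries: CDKN1B led with vehicle and CDKN1A with ebastine.

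The other listed CDK inhibitors belong to different classes. CDKN2C, the p18 INK4 inhibitor of CDK4 and CDK6, stood at 17.9 and 9.53 FPKM, a 1.80-fold lower value with ebastine. CDKN2D, the p19 INK4 gene, stood at 13.9 and 10.5 FPKM. CDKN3, a phosphatase that acts on CDK2 and CDK1 and is itself a gene of dividing cells, had the lowest ratio of the list, going from 81.6 FPKM to 33.5 FPKM (log2 ratio -1.26). The authors' deposited table gives CDKN2C and CDKN3 a q-value of 0.00178 each and CDKN2D one of 0.251. CDKN2A and CDKN2B have no entry in the table.

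The sequence before the CDKN1A start is shown because this gene led the CDK inhibitors. It is taken from RefSeq on GRCh38.p14, as are the others below, and runs 5′ to 3′ on the strand of the gene. Positions count from 1 at the annotated transcript start, with negative numbers before it. The stretch covers -146 to -27 (chromosome 6, 36678568 to 36678687), upstream of the annotated start of the main transcript, with its last bases inside the first exon of a GENCODE transcript that starts earlier. Capitals mark GGGCGG, the core letters bound by SP1, searched on both strands:
CDKN1A: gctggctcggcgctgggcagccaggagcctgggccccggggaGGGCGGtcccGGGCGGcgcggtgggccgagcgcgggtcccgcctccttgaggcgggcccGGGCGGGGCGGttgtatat
There were 4 such matches in the 300-base window (250 bases before the start to 50 after), the last 2 sharing 1 base; 45.0% of all 35116 RefSeq windows of that length hold at least 1. The window held no match to the p53 half-site, which says only that these letters are not in this window. Window GC content was 74.3%, against a median of 58.7% over all windows.

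E2F1 and E2F2, the activator E2Fs, were lower with ebastine by similar amounts on the authors' scale, with E2F2 on the other side of 0 after centring. E2F1 (hg19 chromosome 20, 32263292 to 32274210) measured 38.0 FPKM in the vehicle library and 29.1 FPKM in the ebastine library, a log2 ratio of -0.37. E2F2 (hg19 chromosome 1, 23832920 to 23857712) stood at 2.48 and 1.84 FPKM, a log2 ratio of -0.30. E2F1 was 15.3 times the level of E2F2 with vehicle and 15.8 times with ebastine, so the pair kept nearly the same proportion. The authors' deposited table gives q-values of 0.123 for E2F1 and 0.173 for E2F2, both above 0.05. The CDKN1A level was 0.733 of that of E2F1 with vehicle and 1.56 times that of E2F1 with ebastine.

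Of the 14 genes of E2F factors, their DP partners and the pocket proteins, 4 were listed, or 28.6%. Over all 13714 genes the authors tested, 14.2% are listed. These 4 also count among the genes that E2F factors activate at G1/S, given below, and E2F7 also among the p53 targets. All 4 were lower, beside 57.0% of all listed genes. After centring 3 were lower, beside 47.8% of the listed genes, and the exception was E2F2. E2F7 and E2F8, atypical E2Fs that repress E2F targets, stood at 5.63 and 3.80 FPKM and at 5.24 and 3.28 FPKM, with log2 ratios of -0.46 and -0.55. The authors' deposited table gives them q-values of 0.0155 and 0.00334. The ratio of E2F1 to E2F8 went from 7.24 to 8.87. Thus repressor E2Fs were lower beside the activators. E2F3, E2F4, RB1, RBL1 and RBL2 have no entry.

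The starts of E2F1 and E2F2 are shown because E2F genes are textbook targets of E2F itself. Each stretch covers -120 to -1, on chromosome 20, 33686386 to 33686505, and on chromosome 1, 23531234 to 23531353, minus strand in both. Capitals mark matches on either strand to 1 of the 4 E2F motifs TTTGGCGC, TTTCCCGC, TTTGCCGC and TTTCGCGC:
E2F1: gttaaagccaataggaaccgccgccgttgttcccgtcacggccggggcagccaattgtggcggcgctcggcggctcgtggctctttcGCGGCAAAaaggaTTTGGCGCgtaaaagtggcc
E2F2: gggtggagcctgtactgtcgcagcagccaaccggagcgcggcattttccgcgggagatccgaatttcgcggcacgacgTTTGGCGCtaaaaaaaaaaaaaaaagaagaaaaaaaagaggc
E2F1 held 2 matches, starting at -33 (on the opposite strand) and -20, and E2F2 held 1, starting at -42. Such letters occurred in 3.31% of all 35116 windows. The KIAA0247 window also held 1, TTTCCCGC at -67, and that gene was higher with ebastine.

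Listed genes that E2F factors activate at G1/S were lower on the authors' scale. Of 46 such genes 26 were in the table, or 56.5%, beside the 14.2% of the 13714 genes the authors tested that it holds. How many of the 46 were tested is unknown. Every one of the 26 was lower in the ebastine library, beside 57.0% of all listed genes. The difference reached 1.5-fold in 10, beside 18.6% of all listed genes, and the median log2 ratio was -0.53 against -0.32 over all listed genes. After centring 23 were lower and 3 higher (MCM4, MCM5 and E2F2), with a median of -0.19, beside 52.1% higher and 47.8% lower of the listed genes. Without E2F1 and E2F2 themselves, 24 of 44 were listed, all lower, with a median of -0.54. The lowest ratios were those of thymidine kinase TK1 (161 against 87.6 FPKM), thymidylate synthase TYMS (72.3 against 39.4 FPKM), the transcription factor MYBL2 (97.3 against 54.3 FPKM) and the primase subunit PRIM1 (52.2 against 31.3 FPKM). The smallest differences were those of the helicase subunits MCM5 (42.1 against 34.3 FPKM) and MCM4 (60.0 against 48.03 FPKM), of E2F2, and of the origin binding protein ORC1 (6.91 against 5.19 FPKM). E2F1 therefore lay among the smaller differences of this list and not among its largest. The E2F letters stood in the window of 9 of the 21 listed targets matched to a RefSeq window, or 42.9%, E2F1 and E2F2 among them, beside 3.99% of all 27305 genes with a window. The share was 7.59% over the listed genes and 36.8% over the targets without E2F1 and E2F2. Only 78.5% and 79.2% of those sets had a window. These shares thus describe only genes with a window, and their difference was not tested. In these bulk cultures fewer cells in S phase and less RNA per cell cannot be told apart.

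Genes that act beside E2F and the CDK inhibitors were listed in larger shares than the 14.2% of the 13714 genes the authors tested. How many of these genes were tested is unknown. Those listed were lower, as were 57.0% of all listed genes. Of 8 MuvB and DREAM genes, which assemble with pocket proteins and later with MYB factors and FOXM1, 4 were listed and all 4 were lower, also after centring. FOXM1, the mitotic transcription factor, stood at 39.2 and 18.95 FPKM, LIN9 at 8.10 and 5.26 FPKM, MYBL1 at 3.43 and 2.27 FPKM, and MYBL2 is given above. Of 13 G1 and S cyclin and CDK genes 4 were listed, all lower, also after centring. Cyclin A2 (CCNA2) stood at 39.8 and 17.7 FPKM, the CDK-binding subunit CKS1B at 141 and 75.3 FPKM, SKP2, which marks p27 for degradation, at 25.9 and 17.3 FPKM, and CDK2 at 49.7 and 38.1 FPKM. Cyclins D1 and E1 have no entry.

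**Figure D2:**
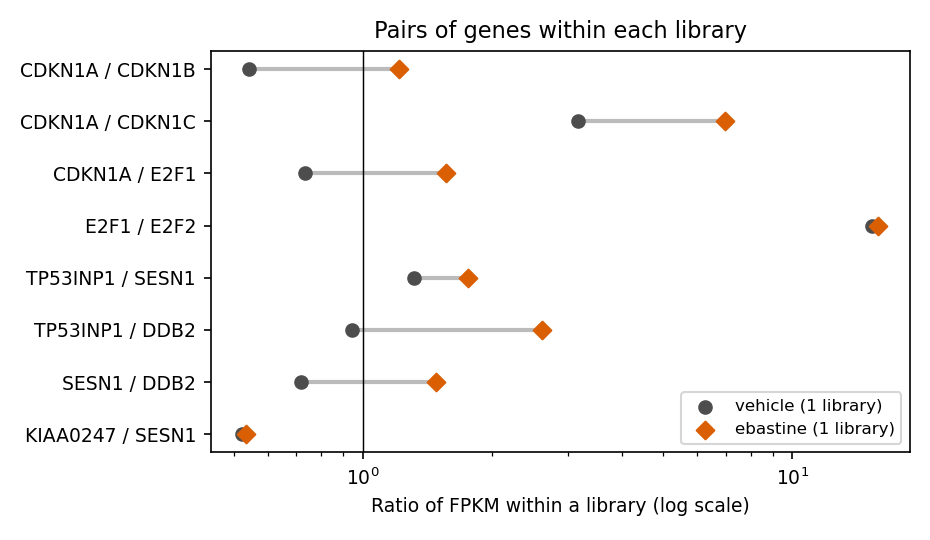
Ratio of the FPKM values of 2 genes inside each library on a logarithmic axis, which does not depend on the scaling between libraries; circles are the vehicle library, diamonds the ebastine library, and the vertical line marks equal levels. CDKN1A passes CDKN1B and E2F1, and TP53INP1 and SESN1 pass DDB2, while E2F1 over E2F2 and KIAA0247 over SESN1 hardly move.

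Of the p53 targets, TP53INP1 had the highest ratio of the 9 genes. TP53INP1 (hg19 chromosome 8, 95938200 to 95961615), a stress protein that promotes p53 phosphorylation and takes part in autophagy, measured 12.9 FPKM in the vehicle library and 22.7 FPKM in the ebastine library. The log2 ratio was 0.77, a 1.71-fold difference, and ranked 89th of 1768 from the top. TP53INP2, its paralogue with a role in autophagosome formation, was higher too, at 5.88 and 8.56 FPKM (log2 ratio 0.47). The ratio of TP53INP1 to TP53INP2 went from 2.19 to 2.65.

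SESN1 and KIAA0247 were higher by nearly equal, smaller amounts. SESN1 (hg19 chromosome 6, 109307640 to 109415708), a sestrin that lowers mTORC1 activity and oxidative stress, stood at 9.81 and 12.9 FPKM, a log2 ratio of 0.36. KIAA0247 (current symbol SUSD6, hg19 chromosome 14, 70078310 to 70181861), a membrane protein induced by p53, stood at 5.14 and 6.88 FPKM, also a log2 ratio of 0.36. The ratio of KIAA0247 to SESN1 was 0.525 with vehicle and 0.534 with ebastine. Their q-values in the authors' deposited table, 0.158 and 0.114, were above 0.05. TP53INP1, TP53INP2 and SESN1 were the listed 3 of 5 genes of the sestrin and TP53INP families. All 3 were higher, beside 43.0% of all listed genes. SESN2 and SESN3 are not listed.

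DDB2, a p53 target that recognises ultraviolet damage in DNA for nucleotide excision repair, went the other way. DDB2 (hg19 chromosome 11, 47236493 to 47260769) measured 13.7 FPKM in the vehicle library and 8.70 FPKM in the ebastine library, a log2 ratio of -0.60 and a 1.51-fold difference. It ranked 311th of 1768 from the bottom. The ratio of SESN1 to DDB2 went from 0.718 to 1.48 and that of TP53INP1 to DDB2 from 0.943 to 2.61, so these p53 targets changed order between the libraries. Of 25 nucleotide excision repair genes DDB2 and the DNA ligase LIG1, which also joins replicated DNA, were the 2 listed, and LIG1 stood at 11.01 and 7.22 FPKM. DDB1, the partner of DDB2, and XPC, another p53 target of this pathway, are not listed.

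The p53 half-sites near the starts of DDB2 and SESN1 are shown because these p53 targets went in opposite directions. A half-site is the 10-base p53 motif, searched by its degenerate form, which reads alike on both strands; it occurred in 6.63% of all windows. DDB2 is shown from 3 to 29 after the second of its 2 annotated starts (chromosome 11, 47214976 to 47215002, plus strand), inside the 5′ untranslated part of its first exon in GENCODE. SESN1 is shown from -120 to -1 of the most downstream of its 3 annotated starts (chromosome 6, 109008989 to 109009108, minus strand), which lies within the longer SESN1 transcripts. Capitals mark each half-site:
DDB2: tttGAACAAGCCCtGGGCATGTTTggc
SESN1: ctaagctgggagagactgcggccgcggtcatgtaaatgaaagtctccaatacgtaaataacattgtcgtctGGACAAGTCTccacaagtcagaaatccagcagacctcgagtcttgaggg
DDB2 held 2 half-sites, starting at 6 and 17, and SESN1 held 1, starting at -49. The other windows of DDB2 and SESN1 and those of CDKN1A, KIAA0247, GDF15, E2F1 and E2F2 held none. No window of TP53INP1 or CDKN1C was searched. The table is at gene level and does not tell which start was used. Binding of p53 was not measured.

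GDF15, a secreted cytokine of the TGF-beta superfamily that p53 and the integrated stress response both induce, was by far the most abundant of the 9. GDF15 (hg19 chromosome 19, 18496968 to 18499986) measured 1002 FPKM in the vehicle library and 703 FPKM in the ebastine library, a log2 ratio of -0.51 and a 1.42-fold difference, and its mean level ranked 11th of the 1947 listed genes. It was 36.0 times the CDKN1A level with vehicle and 15.5 times with ebastine. Its proportion to DDB2 was 73.3 and 80.8. Of 30 genes of the integrated stress response 8 were listed, or 26.7%, beside 14.2% of the 13714 genes the authors tested. All 8 were lower, beside 57.0% of all listed genes. After centring 6 were lower, beside 47.8% of the listed genes, with CARS and VLDLR as the exceptions. The turn of VLDLR depends on the pseudocount: the authors' log2 fold change was -0.37, further from 0 than the shift of 0.34. The serine and folate enzyme MTHFD2 stood at 145 and 94.7 FPKM, the asparagine synthetase ASNS at 189 and 148 FPKM, the mTOR inhibitor DDIT4 at 359 and 279 FPKM and the hormone FGF21 at 1.46 and 0.586 FPKM. The cystine transporter SLC7A11 stood at 13.97 and 10.4 FPKM, the glycoprotein hormone STC2 at 28.7 and 21.6 FPKM, the lipoprotein receptor VLDLR at 6.75 and 5.22 FPKM and the tRNA ligase CARS at 43.1 and 34.7 FPKM. MTHFD2 was the 1 gene of these 8 whose q-value lay under 0.05 (0.0175 in the authors' deposited table), beside 41.0% of all listed genes.

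A wider set of p53 targets was divided as well. Of 138 targets on the lists 24 were in the table, or 17.4%, beside the 14.2% of the 13714 genes the authors tested that the table holds; how many of the 138 were tested is unknown. Of the 24, 14 were higher and 10 lower, beside 43.0% and 57.0% of the listed genes, with a median log2 ratio of 0.31. After centring 16 were higher and 8 lower, where 52.1% of the listed genes were higher. APAF1 and PLK2 made up the change. Their log2 fold changes from the authors, without a pseudocount, were -0.537 and -0.343, further from 0 than the shift of 0.335. Their turn therefore depends on the pseudocount. Without the 6 targets that are members, 18 of 132 were listed. Of these, 10 were higher and 8 lower, and their median was 0.27 against -0.32 over all listed genes. The q-value lay under 0.05 for 6 of the higher and 6 of the lower targets, per the authors' deposited table, beside 41.0% of all listed genes. The median of these 12 was 0.0029, the midpoint between ABHD4 (0.47) and E2F7 (-0.46), and none of the 12 lay near 0. The p-value limit leaves few ratios near 0, so such medians follow the balance of higher and lower genes and give no typical size.

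By role, all 5 listed targets of metabolism, redox balance and autophagy were higher, of 29, with a median of 0.47. Over all listed genes 43.0% were higher and 57.0% lower, and after centring 52.1% and 47.8%. Besides SESN1 they were the phosphatidate phosphatase LPIN1 (16.1 against 29.4 FPKM), the retinol saturase RETSAT (19.7 against 31.9 FPKM), the lipid hydrolase ABHD4 (16.2 against 22.8 FPKM) and the NAD synthetase NADSYN1 (23.9 against 31.4 FPKM). Of 26 cell death targets 5 were listed, with KIAA0247 higher and 4 lower. The BH3-only protein PMAIP1 (NOXA) stood at 7.76 and 5.06 FPKM, the caspase activator APAF1 at 1.995 and 1.37 FPKM, IKBIP at 4.84 and 3.14 FPKM and TNFAIP8 at 14.7 and 9.41 FPKM. After centring APAF1 lay at 0.00054, just on the other side of 0. Its log2 fold change from the authors, without a pseudocount, was -0.54, further from 0 than the shift of 0.34. The death genes BAX, BBC3, FAS and TNFRSF10B are not listed.

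Of 28 targets of growth arrest and signalling 7 were listed, 3 higher and 4 lower. TP53INP1, CDKN1A and the cytokine LIF (1.13 against 1.57 FPKM) were higher. GDF15, E2F7, IER5 (8.30 against 5.52 FPKM) and the kinase PLK2 (20.1 against 15.9 FPKM) were lower, with PLK2 at 0.01 after centring. The turn of PLK2 depends on the pseudocount: the authors' log2 fold change was -0.343, further from 0 than the shift of 0.335. Of 10 DNA repair targets DDB2 was the 1 listed. Of 45 other targets 6 were listed, 5 higher and 1 lower. The matrix protein THBS1 stood at 15.6 and 24.8 FPKM, ARHGEF3 at 1.34 and 2.09 FPKM, the phosphatase DUSP5 at 0.804 and 1.35 FPKM, CYFIP2 at 4.41 and 5.88 FPKM and the receptor NOTCH1 at 4.45 and 5.62 FPKM. The chaperone HSPA4L was lower, at 18.2 and 13.5 FPKM. Over all listed genes 43.0% were higher and 57.0% lower. These role groups are small, and whether their directions differ was not tested.

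**Figure D3:**
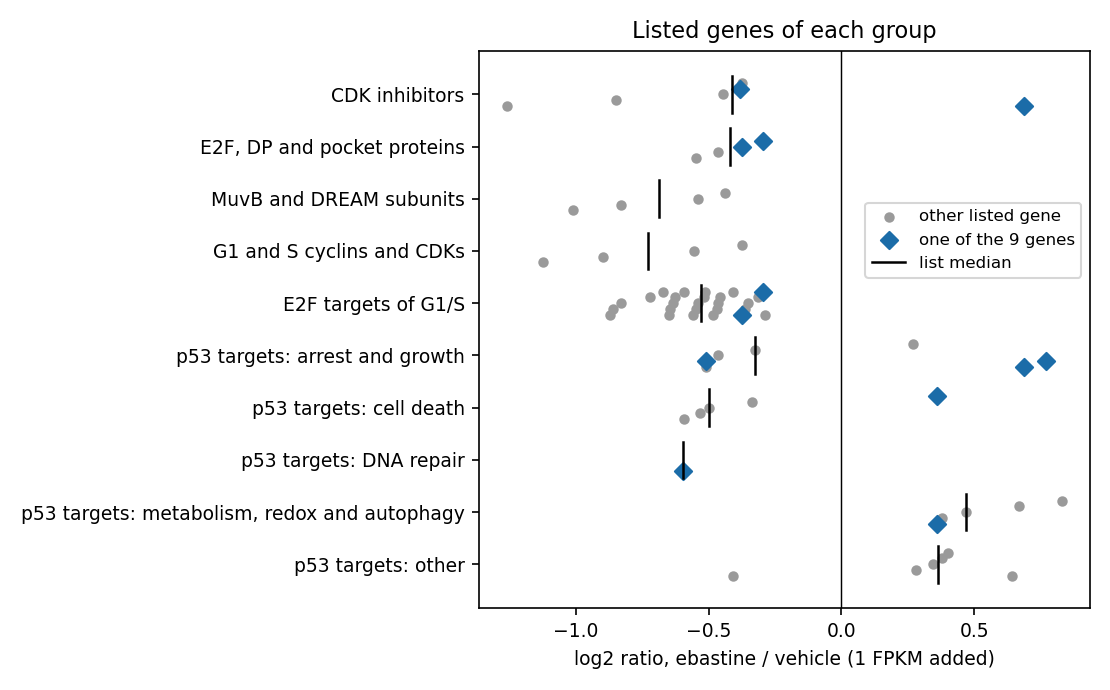
Log2 ratio of ebastine over vehicle for every listed gene of each group, with diamonds for the 9 genes, circles for other listed genes and a vertical bar at the median of each list; vertical offsets only separate the points. CDKN1A stands alone above 0 among the CDK inhibitors, all E2F targets lie below 0 on the authors' scale (23 of 26 after centring), and p53 targets lie on both sides with those of metabolism all above it.

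Of 23 genes that control p53, 2 were in the table, or 8.70%, beside 14.2% of the 13714 genes the authors tested. Both were lower, beside 57.0% of all listed genes. One of them, CHEK1, is also counted among the E2F targets above. The checkpoint kinase CHEK1 stood at 20.5 and 14.02 FPKM and CHEK2 at 30.1 and 18.6 FPKM. The ubiquitin ligase MDM2 (also a classical p53 target), MDM4 and the phosphatase PPM1D have no entry, so the usual feedback genes of p53 cannot be read here. Protein levels were not measured.

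By level, the order of the 9 genes with vehicle was GDF15, E2F1, CDKN1A, DDB2, TP53INP1, SESN1, CDKN1C, KIAA0247 and E2F2. With ebastine it was GDF15, CDKN1A, E2F1, TP53INP1, SESN1, DDB2, KIAA0247, CDKN1C and E2F2. CDKN1A passed E2F1, DDB2 went from the fourth to the sixth place, and KIAA0247 passed CDKN1C. With 1 library per group, no neighbours in either order can be separated by a spread. The mean level of the genes was above that of 18.3% of listed genes for E2F2 and of 99.4% for GDF15.

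**Figure D4:**
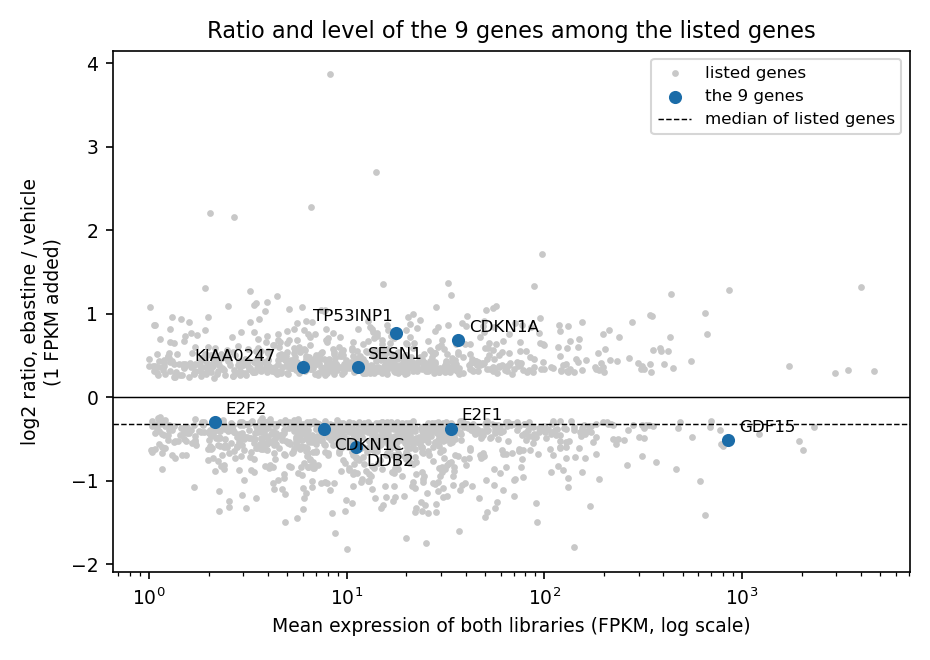
Log2 ratio of ebastine over vehicle (1 FPKM added) against the mean FPKM of both libraries on a logarithmic axis for the 1768 listed genes averaging 1 FPKM or more, with the 9 genes in blue; the dashed line is the median ratio of -0.32. The empty band around 0 is the authors' p-value limit. E2F1, E2F2 and CDKN1C lie near it below and SESN1 and KIAA0247 near it above, while CDKN1A, TP53INP1 and DDB2 lie further away.

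The listed genes nearest to a member were sought over both libraries by the distance between their log2(FPKM + 1) values. Nearest to CDKN1A were PCYT2 (27.6 and 43.7 FPKM, at a distance of 0.058), ST7 and IFI27L2. Nearest to TP53INP1 were LOC100128822, SERPINI1 and SIDT2. Among the 3 nearest to DDB2 were ENO2 (14.05 and 8.20 FPKM, at a distance of 0.084) and WDR67. GDF15 lay closest to the lactate dehydrogenase gene LDHA (963 and 643 FPKM, at a distance of 0.14), followed by H2AFZ and TPI1. With 2 libraries such nearness says only that the values are alike.

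The label of the cells was checked against prostate markers. Of 12 luminal markers 6 were listed: KLK3 at 2476 and 1599 FPKM, KLK2 at 465 and 272 FPKM, FOLH1 at 495 and 840.4 FPKM, TMPRSS2 at 362 and 289 FPKM, STEAP2 at 76.9 and 121 FPKM and ACPP at 2.21 and 5.55 FPKM. Of 25 markers of basal, stromal, endothelial and blood cells 1 was listed, CD4, at 0.400 and 0.693 FPKM. Since the table holds only genes that differed, an unlisted marker is not shown to be at 0.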

How the data were processed

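Polyadenylated RNA of 2 C4-2 cultures, 1 vehicle and 1 ebastine, was sequenced. The submitters' processing notes name TopHat2, Cuffdiff and the build hg19 but no versions. The deposited FPKM values come from 1 table in Cuffdiff's layout, per the file headers; the scaling between libraries, the gene models and the strand setting are not stated in the sources used here. The deposited log2 fold change, p-value and q-value are the authors', from 1 library per group; the deposited test score was not used. For the 9 genes the deposited log2 fold change equalled the one recomputed without a pseudocount, to within 6.1e-06. The table ends at a p-value of 0.0499, and its q-values follow an adjustment over 13714 genes.

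Ratios were log2((ebastine + 1)/(vehicle + 1)), with a pseudocount of 1 FPKM, computed with Python 3.11.15, pandas 2.3.3 and numpy 2.4.6. Counts of genes cover those with a mean of at least 1 FPKM, which all 9 passed. No test was made because each group held 1 library. The ratio and count code was tested on simulated data. Locus starts count from 0 in the file and were converted: 79 of 1725 genes then had their RefSeq length, against 28 otherwise. No other listed gene overlapped the loci of the 9. List genes were matched by symbol or older name; every listed gene of a list was named where 8 or fewer were listed, otherwise the 4 highest and 4 lowest ratios, with the 3 nearest genes of CDKN1A, TP53INP1, DDB2 and GDF15 (1 of those of DDB2 is not reported here). The members and the 18 lists were chosen with earlier results of these data known. RefSeq windows on GRCh38.p14 were searched for 7 of the 9 genes, and none was searched for CDKN1C and TP53INP1. Pseudocounts of 0.1 and 5 FPKM, other limits on low values, centring and upper quartile rescaling were tried.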

Additional observations from a re-analysis of the deposited data

How the results depend on the processing

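Among the 9 genes, the sign of the ratio held under pseudocounts of 0.1 and 5 FPKM and upper quartile rescaling, and after centring for 8; E2F2 turned to 0.039. No paired analysis was possible because each group held 1 library. With no replicate spread, a ratio was counted as moved where it crossed 1.5-fold or shifted by that much. SESN1 and KIAA0247 reached 0.70 and 0.69 after centring. DDB2 was at -0.45 with a pseudocount of 5 FPKM, -0.26 after centring and -0.41 after upper quartile rescaling, all under 1.5-fold. The count of genes higher by 1.5-fold or more, 171, changed to 263 at a pseudocount of 0.1, 84 at one of 5, 757 after centring and 431 after upper quartile rescaling. The 328 at least 1.5-fold lower became 432 with a pseudocount of 0.1, 179 with one of 5, 108 after centring and 184 after rescaling. The median of the listed p53 targets was 0.65 after centring, and 3 E2F targets were then higher in place of 0. Keeping genes whose q-value lay under 0.05 (from the authors' deposited table), a choice made after seeing the data, left 2 members higher and 2 lower, 6 p53 targets higher and 6 lower with a median of 0.0029 in place of 0.31, and a median of -0.59 over E2F targets. The cause of these shifts was not tested beyond the construction of each setting. Depth is unknown, so no counting error can be given.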
